A study of Mus musculus with 16 samples.

Results

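The response to loss of phosphoglycerate mutase 1 was contrasted between brown adipose tissue (BAT) and gonadal white adipose tissue (gWAT) of the same study. For each gene, the difference in level from WT to KO was taken in gWAT, and the same difference in BAT was subtracted from it. All 16 of the 16 arrays of the series entered this contrast, with 4 arrays for each depot and genotype. The Adipo-Pgam1 KO mice carried Adipoq-Cre and homozygous floxed Pgam1 (Adipoq-Cre; Pgam1 flox/flox), and the littermate controls (WT) carried the same floxed alleles without Cre. All animals were male mice of the strain C57BL/6NCrSlc, aged 16 weeks, except that replicate 4 of the Adipo-Pgam1 KO group was aged 14 weeks in both depots. The adiponectin promoter drives Cre in adipocytes, and the whole tissue was measured, so that cells without Cre activity add to each value. Each value is a log2 scaled intensity, that is, log2 of the probe signal after scaling to the 75th percentile of the array, so that 0 marks that percentile.

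Phosphoglycerate mutase converts 3-phosphoglycerate to 2-phosphoglycerate in glycolysis, and 3-phosphoglycerate is also the starting point of serine synthesis. Brown adipocytes hold many mitochondria and lipid droplets and burn fatty acids for heat through uncoupling protein 1, whereas gonadal white adipocytes store triglyceride in a single large droplet and make few mitochondria unless beige adipocytes appear among them. Both depots also hold macrophages, mast cells, fibroblasts and vessels, so a whole-tissue array reads a mixture. In such bulk samples, fewer cells of a type and less RNA per cell cannot be told apart.

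On each array, 49.997% to 62.2% of the probes were well above background. The 75th percentile of the raw signal ranged from 401 to 916 over the arrays. In BAT it did not overlap between genotypes, with 401 to 451 in WT and 650 to 916 in KO. In gWAT it overlapped, with 570 to 855 in WT and 657 to 831 on the arrays labelled Adipo-Pgam1 KO. A skeletal muscle signal set apart 2 of the BAT-KO arrays, since the fast myosin gene Myh4 had a linear scaled intensity of 32.4 on replicate 1 and 6.97 on replicate 3, against at most 0.03 on every other BAT array. Results are therefore also given without both of these arrays, which is an alternative set up after seeing the data. The arrays lay on 3 slides, and only WT replicate 4 of each depot shared a slide with the KO arrays of its depot. Slide and genotype were thus mostly confounded. Values within a slide are given for some of the named genes, and a summary over all of them closes the Results.

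Pgam1 itself responded in opposite directions. On the 4 BAT-WT arrays its log2 scaled intensity was 7.94, 7.93, 8.07 and 7.82, and on the 4 BAT-KO arrays it was 6.20, 6.13, 6.03 and 6.43. On the gWAT-WT arrays it was 5.07, 5.15, 5.67 and 5.56, and on the gWAT arrays labelled Adipo-Pgam1 KO it was 6.50, 6.42, 6.38 and 5.95. The genotypes did not overlap in either depot, with BAT-KO below BAT-WT and the gWAT arrays labelled Adipo-Pgam1 KO above gWAT-WT. The log2 change was -1.74 (SE 0.16, adjusted p = 6.86e-07) in BAT and 0.95 (SE 0.16, adjusted p = 7.15e-04) in gWAT, and a second probe gave -1.65 and 1.02. The difference between the depots was 2.69 (95% confidence interval 2.22 to 3.16, adjusted p = 2.59e-06, limma). Within a slide, that is against the single WT array that shared it, the depot difference was 2.37 (adjusted p = 0.00180), but the gWAT change was 0.75 and missed the threshold (adjusted p = 0.0895). A two-sided exact permutation test gave p = 0.0286 in each depot, which is the lowest value possible with 4 arrays in each group. The floxed exons are not named in the sources used here, so the place of the probes relative to the deletion is not known. As the targeted gene went against the label in gWAT, these arrays are called by their label throughout, and every gWAT direction depends on the labels being right. If the gWAT labels were exchanged, the genes described as responding alike and those described as opposite would trade places.

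The genotype response differed between the depots in 7163 of the 14818 genes tested at an adjusted p of 0.05. The change was more positive in gWAT for 4058 genes (27.4% of those tested) and more positive in BAT for 3105 (21.0%). Within BAT, 3777 of 14278 genes were higher (26.5%) and 4543 lower (31.8%) in the KO group. Within gWAT, 2404 of 14147 genes were higher (17.0%) and 1579 lower (11.2%) on the arrays labelled Adipo-Pgam1 KO. Over the 13607 genes tested in both depots, the median size of the change was 0.53 in BAT and 0.30 in gWAT, and the median signed change was -0.08 and 0.06. The split of calls moved with the scaling. Higher genes were 45.4% of those called in BAT, but 17.0% after scaling to Actb and Rplp0 and 78.1% after scaling to the spike-in controls. In gWAT they were 60.4%, but 95.8% after spike-in scaling and 76.1% after median centring. Of the genes that differed between the depots, 56.7% were more positive in gWAT, and 83.7% were after scaling to Actb and Rplp0. Spike-in scaling moved the median change of all genes to 0.42 in BAT and 0.51 in gWAT, and Actb and Rplp0 scaling moved it to -0.67 and 0.00, so changes are described relative to the 75th percentile of each array.

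The genes tested in both depots were sorted into 8 response patterns. A gene was opposite if it passed the threshold in each depot with different signs and alike if it passed in each with the same sign. A gene was assigned to one depot only if it passed there, its depot difference passed, and in the other depot it did not pass and its 95% confidence interval lay within 1 log2 unit of 0. Of 13607 genes, 857 were lower in BAT and higher in gWAT (6.30%), and 246 were higher in BAT and lower in gWAT (1.81%). In both depots, 670 genes were higher (4.92%) and 589 lower (4.33%). In BAT only, 1440 genes were higher (10.6%) and 1987 lower (14.6%), and in gWAT only, 543 were higher (3.99%) and 329 lower (2.42%). The remaining 6946 genes had no pattern, and 3847 of these passed in none of the contrasts. Alike did not mean equal, since among the 1259 alike genes the depot difference passed the threshold in 370, with the larger change in BAT for 331 and in gWAT for 39. Without both BAT-KO arrays with muscle signal, 6009 genes differed between the depots, with 762 opposite, 1018 alike, 2850 in BAT only and 736 in gWAT only.

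**Figure D1:**
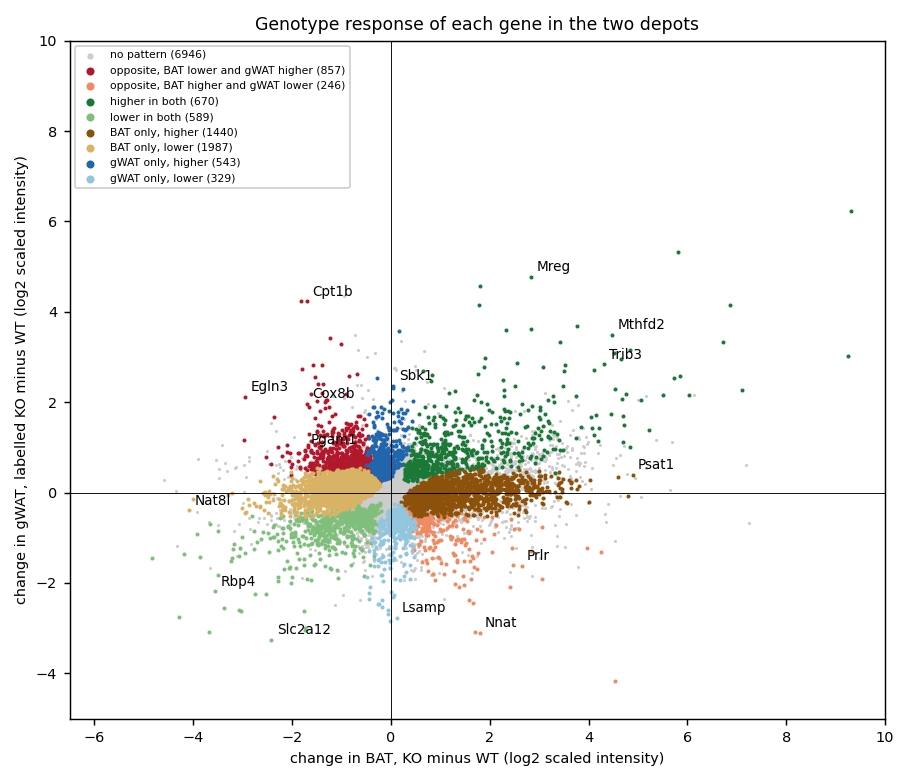
Each point is a gene tested in both depots, with its log2 change in BAT on the x axis and in gWAT on the y axis, coloured by response pattern. The 857 genes that were lower in BAT and higher in gWAT fill the upper left quadrant, and the 1987 genes lower in BAT only form the band left of 0 on the horizontal axis.

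The 4 genes with the largest changes in both depots among those lower in BAT and higher in gWAT were Egln3, Otop1, Cpt1b and Cox8b. Egln3, a prolyl hydroxylase that marks hypoxia-inducible factor for degradation, was 0.88, 0.49, 0.58 and 0.68 on the BAT-WT arrays and -2.50, -2.16, -2.29 and -2.23 on BAT-KO. In gWAT, Egln3 was -1.94, -1.89, -1.62 and -2.24 in WT and 1.03, 0.02, 0.25 and -0.50 on the arrays labelled Adipo-Pgam1 KO. Neither depot showed an overlap between genotypes, and the BAT-KO arrays lay close to the gWAT-WT arrays. Egln3 changed by -2.95 in BAT and 2.12 in gWAT, a depot difference of 5.08 (95% confidence interval 4.34 to 5.81, adjusted p = 1.04e-06). Cpt1b, which admits long-chain fatty acids to mitochondria in muscle and brown fat, was 6.23, 6.31, 6.26 and 5.98 in BAT-WT and 4.60, 4.33, 4.33 and 4.73 in BAT-KO. Its gWAT values were -1.86, -2.70, -2.17 and -2.69 in WT and 2.83, 1.86, 1.98 and 0.84 on the arrays labelled Adipo-Pgam1 KO. In Cpt1b, the KO-labelled gWAT arrays stayed below every BAT array while standing above every gWAT-WT array. Cpt1b changed by -1.70 in BAT and 4.23 in gWAT (depot difference 5.93, 95% confidence interval 4.99 to 6.87, adjusted p = 1.70e-06). Cox8b, a cytochrome c oxidase subunit of muscle and brown fat, changed by -1.70 and 1.96 (depot difference 3.66, adjusted p = 2.14e-05). Otop1, a proton channel gene expressed in brown fat, changed by -1.82 and 4.24 with its brightest probe, but its other probe changed by only 0.42 in gWAT.

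**Figure D2:**
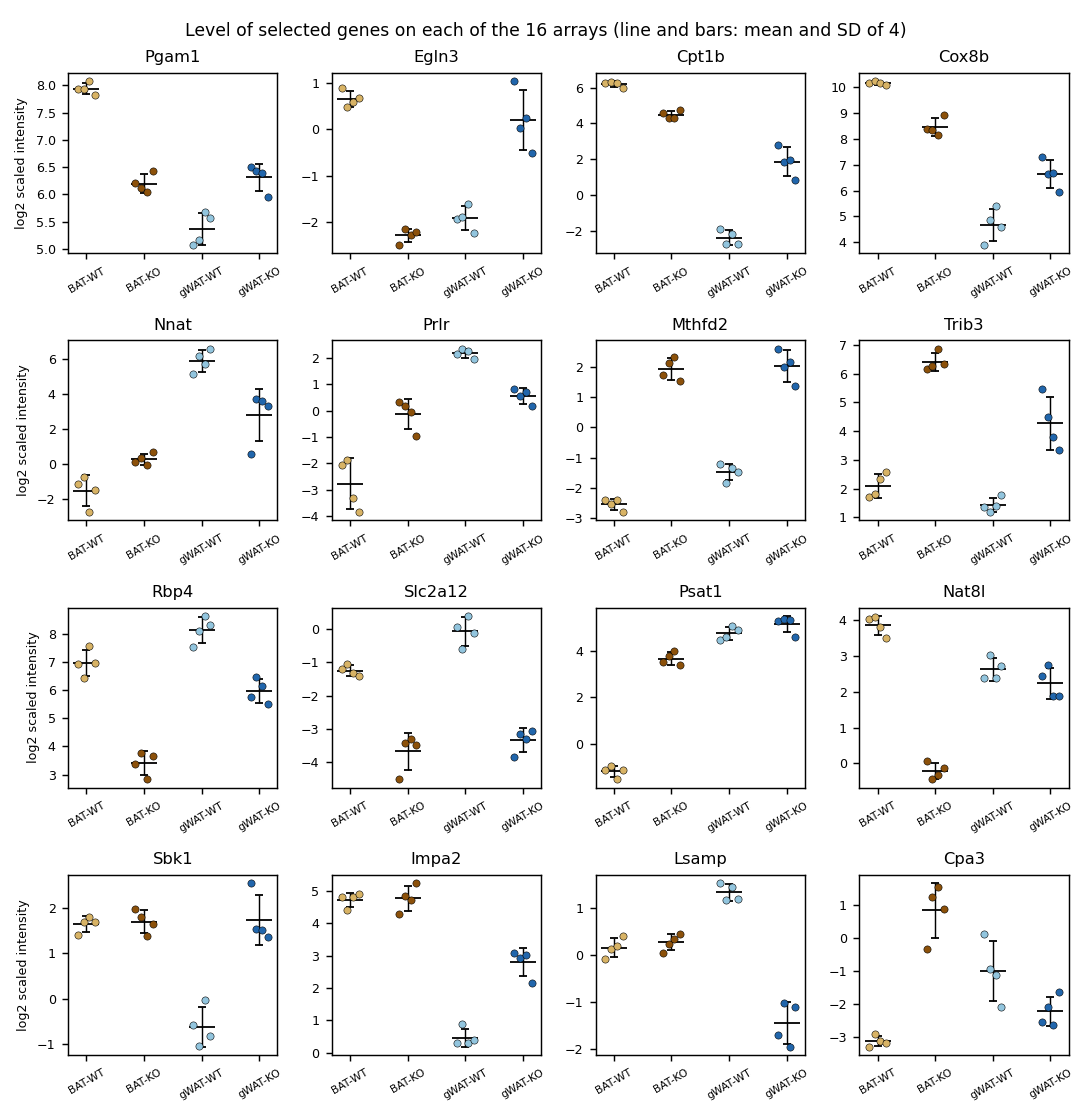
Log2 scaled intensity of 16 genes on each array (points) with the mean and SD of the 4 arrays of each group, gWAT-KO standing for the gWAT arrays labelled Adipo-Pgam1 KO. Egln3, Cpt1b and Cox8b moved down in BAT and up in gWAT, Nnat and Prlr moved the other way, and Psat1 and Nat8l changed by more than 4 log2 units in BAT with a gWAT change of at most 0.40 in size.

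Gene classes were described with 57 lists, of which 52 had at least 10 members tested in both depots, and whose 1622 different symbols include 1452 tested in both. Lists of the machinery that builds mitochondria had negative medians in BAT and positive medians in gWAT. The 78 mitochondrial ribosomal proteins, which translate the genes of mitochondrial DNA, had a median change of -0.73 in BAT and 0.44 in gWAT. In BAT, 61 of the 78 were lower and 0 higher, and in gWAT 38 were higher and 0 lower. The depot difference passed in 72, all more positive in gWAT. By gene, 26 of the 78 were opposite, 33 were lower in BAT only and 10 were higher in gWAT only. Mrpl34 changed most between depots among those bright on all arrays, by -1.40 in BAT and 0.93 in gWAT. Mitochondrial import genes had medians of -0.74 and 0.51 and 16 of 35 members opposite, among them Samm50 of the outer membrane sorting complex at -1.08 and 1.12. Respiratory complex assembly factors had medians of -0.75 and 0.44, with 13 of 42 opposite, 18 lower in BAT only and 6 higher in gWAT only.

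Smaller mitochondrial lists also held opposite genes. Among 13 genes of coenzyme Q synthesis, 6 were opposite, including Coq10a, a coenzyme Q binding protein gene, at -1.997 and 0.64. Among 17 iron-sulphur cluster genes, 4 were opposite, including the assembly factor Bola3 at -1.33 and 0.97. Of 16 mitochondrial chaperones and proteases, 7 were opposite. Of 41 carriers of the inner membrane, 12 were lower in BAT and higher in gWAT, against 6.30% of all genes. The 3 carriers higher in both depots and the 1 lower in both are shares near the 4.92% and 4.33% of all genes. The citrate carrier Slc25a1 changed by -1.50 and 2.03, the pyruvate carrier subunit Mpc2 by -1.37 and 1.26, and the acylcarnitine carrier Slc25a20 by -1.76 and 0.75. Of 24 genes of mitochondrial fusion, fission and mitophagy, 5 were opposite and 3 were lower in both, among them the mitophagy receptor Bnip3 at -2.39 and -0.99. Spike-in scaling turned the BAT median of the carriers to 0.08 and that of the fusion, fission and mitophagy list to 0.03. The median difference between depots kept its sign for each mitochondrial list in all 34 alternatives. Some of these, such as the stricter threshold and the two-group test, leave the estimates unchanged and could not turn it. Within the slide the gWAT medians were smaller, at 0.23 for mitochondrial ribosomal proteins, 0.24 for assembly factors and 0.19 for the iron-sulphur list. The gWAT changes were then 0.75 for Mrpl34 (adjusted p = 0.180), 0.55 for Samm50 (adjusted p = 0.362), 0.42 for Coq10a (adjusted p = 0.348) and 0.56 for Bola3 (adjusted p = 0.294), none of which passed.

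The promoters of Mrpl30 (-1.09 in BAT, 0.81 in gWAT) and Mrpl10 (-1.11 in BAT, 0.52 in gWAT) are shown because they hold the motif GCGCANGCG of nuclear respiratory factor 1 (NRF1), a regulator of nuclear genes for mitochondrial proteins. They are the mitochondrial ribosomal protein genes with the largest depot difference among those whose window held the motif. Each run is 250 bases of the gene strand before the transcription start, from RefSeq on GRCm38.p6, at chr1:37890227-37890476 on the plus strand for Mrpl30 and chr11:97041332-97041581 on the plus strand for Mrpl10, with motif matches on either strand in capitals:
Mrpl30: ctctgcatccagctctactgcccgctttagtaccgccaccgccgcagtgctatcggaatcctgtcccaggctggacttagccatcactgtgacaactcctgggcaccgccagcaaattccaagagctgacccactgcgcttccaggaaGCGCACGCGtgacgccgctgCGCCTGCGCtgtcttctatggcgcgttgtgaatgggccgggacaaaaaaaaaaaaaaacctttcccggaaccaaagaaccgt
Mrpl10: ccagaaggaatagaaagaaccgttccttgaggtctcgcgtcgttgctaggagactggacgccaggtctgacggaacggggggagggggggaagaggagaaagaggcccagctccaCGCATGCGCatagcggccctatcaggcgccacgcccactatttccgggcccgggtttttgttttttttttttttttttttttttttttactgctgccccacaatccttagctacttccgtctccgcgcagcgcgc
Shares are of genes that have a promoter, and a gene counts if any of its windows held the motif. The NRF1 motif was found for 13 of 69 mitochondrial ribosomal protein genes (18.8%). That compares with 11.9% of the genes tested in both depots and 5.86% of all genes. The motif was found for 17.3% of the genes that were lower in BAT and higher in gWAT. It was found for 15.04% of those lower in BAT only and 14.98% of those higher in gWAT only. These matches are a description of the letters and not of binding.

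Some thermogenic and lipid storage genes were opposite as well, and others passed in one depot or in neither. Thermogenic and brown fat identity genes had a median change of -1.25 in BAT and 0.91 in gWAT, with 10 of 25 opposite, against 6.30% of all genes, 2 lower in both and 4 lower in BAT only, the last being near the 14.6% of all genes. Cidea, a lipid droplet protein typical of brown and beige fat, changed by -1.23 and 3.41, and Plin5, which ties droplets to mitochondria, by -1.32 and 2.05. The fatty acid binding protein gene Fabp3 changed by -1.40 and 2.81, but within the slide by -1.27 and 1.23, and it then passed in neither depot (adjusted p = 0.120 and 0.262) nor between depots (adjusted p = 0.0592). Members that moved alike included the beta3-adrenergic receptor gene Adrb3, lower in both depots by -2.19 and -1.22, and Fgf21, a secreted metabolic hormone, which was higher in both. The nuclear receptor Ppara, which drives fatty acid oxidation genes, and the coactivator Ppargc1b were lower in BAT by -2.14 and -1.94 and changed by 0.14 and 0.12 in gWAT. Ucp1 itself changed by -1.27 in BAT and missed the threshold (adjusted p = 0.0529), whereas in gWAT it was well above background on 0 of 4 WT arrays and 3 of 4 labelled Adipo-Pgam1 KO, at least 7.35-fold higher, and was not tested there. Triglyceride synthesis and droplet genes had medians of -1.11 and 0.32, with 22 of 30 lower and 3 higher in BAT and 11 higher and 2 lower in gWAT, so that 9 were opposite and 10 lower in BAT only, and Dgat2, which catalyses the last step of triglyceride synthesis, changed by -2.42 and 0.63. Of 38 peroxisomal genes, 33 were lower in BAT (median -0.997) while 14 were higher and 4 lower in gWAT (median 0.19), and 12 were opposite. The 4 lower in gWAT are a share near the 11.2% of all genes. Ehhadh of peroxisomal beta-oxidation changed by -1.74 and 0.82. Within the slide the gWAT changes were 0.74 for Ehhadh and 0.60 for Dgat2, and neither passed.

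Lists of protein turnover and redox genes held opposite genes too. Of 36 proteasome subunits, 26 were lower in BAT and 14 higher in gWAT, with 0 in the other direction in either depot, and 9 were opposite (medians -0.48 and 0.38, the BAT median turning to 0.02 under spike-in scaling). Psmd8 changed by -0.77 and 1.36, whereas Psmb5, a catalytic subunit, changed by 0.07 in BAT and 1.39 in gWAT. Nrf2 targets and superoxide defence genes split into 6 of 27 opposite and 3 higher in both. Tkt of the pentose phosphate pathway changed by -0.87 and 1.51 and mitochondrial Sod2 by -0.92 and 0.94. Within the slide the gWAT changes were 0.94 for Tkt and 0.83 for Sod2, and neither passed. The BAT median of this list was -0.12, and it turned to 0.39 under spike-in scaling and to 0.38 under quantile normalization. In the hypoxia response list, 3 of 19 genes were opposite in the direction of Pgam1, Egln3 with Egln1 (-1.59 and 0.53) and the pyruvate dehydrogenase kinase gene Pdk1 (-1.45 and 1.01), although other probes of Pdk1 ranged from -0.05 to 1.06 in gWAT. Within the slide the gWAT changes were 2.44 for Egln3, 0.32 for Egln1 and 0.97 for Pdk1, and that of Egln1 missed the threshold. The only reverse case of that list was Ndrg1, a stress-responsive gene, at 0.84 and -0.87. Of 38 autophagy genes, 14 were lower in BAT only, against 14.6% of all genes.

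**Figure D3:**
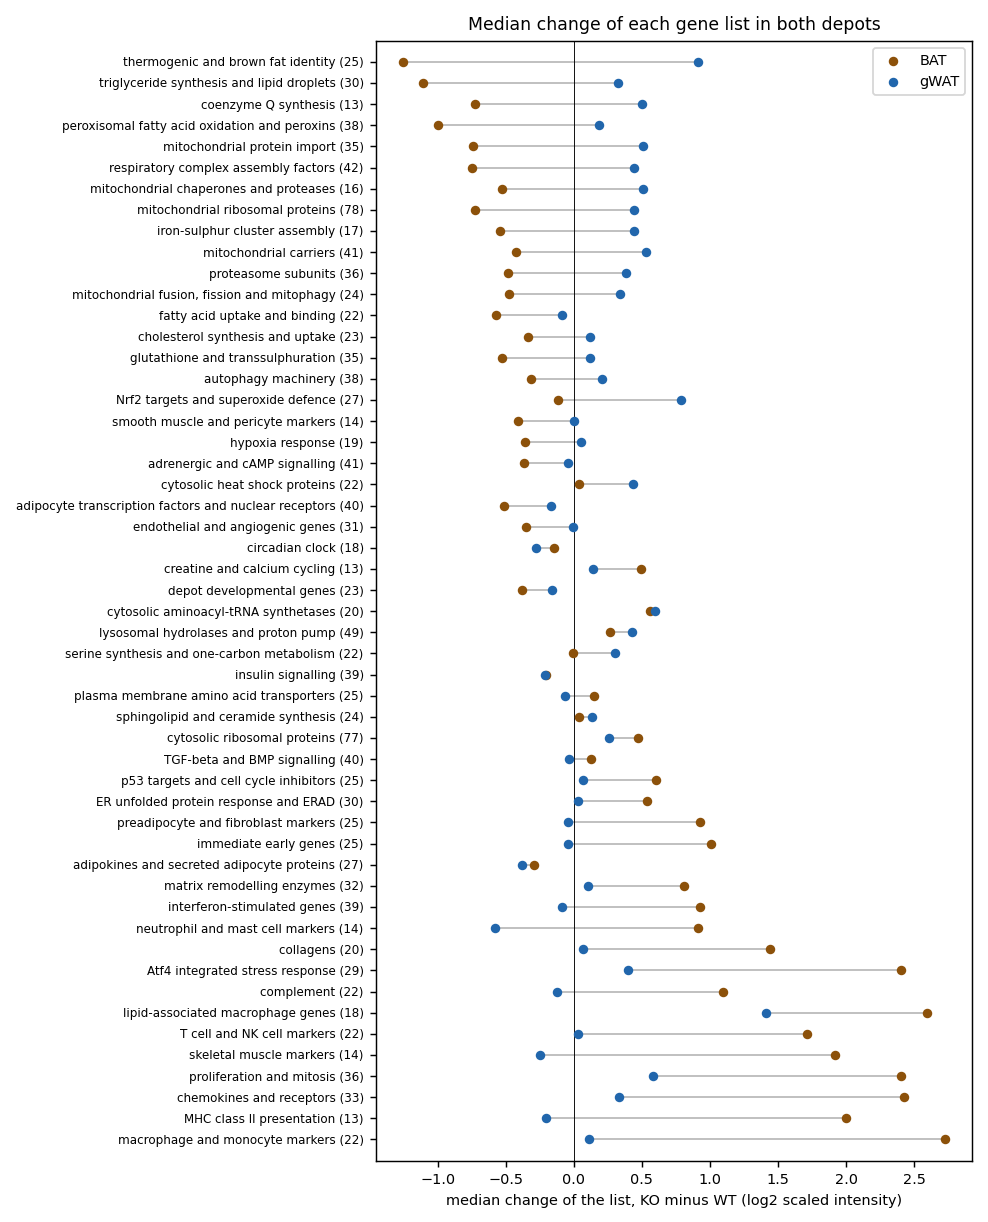
Median log2 change in BAT and in gWAT for the 52 gene lists with at least 10 members tested in both depots (number in brackets), ordered by the median depot difference. Thermogenic genes (-1.25 in BAT, 0.91 in gWAT) and the mitochondrial lists lie on either side of 0, and macrophage markers (2.73, 0.11) are far apart with the gWAT median near 0.

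Fewer genes took the reverse direction, higher in BAT and lower in gWAT. Nnat, which codes for the endoplasmic reticulum protein neuronatin, was -1.13, -0.72, -2.74 and -1.46 in BAT-WT and 0.16, 0.33, -0.04 and 0.68 in BAT-KO. In gWAT, Nnat was 5.17, 6.21, 5.71 and 6.61 in WT and 0.61, 3.72, 3.64 and 3.34 on the arrays labelled Adipo-Pgam1 KO. Genotypes did not overlap in either depot, and replicate 1 of the gWAT arrays labelled Adipo-Pgam1 KO lay far below the other 3. Nnat changed by 1.79 in BAT and -3.10 in gWAT (depot difference -4.89, 95% confidence interval -6.71 to -3.07, adjusted p = 3.67e-04), or -2.36 in gWAT and -4.15 between depots without that array. Prlr, the prolactin receptor gene, changed by 2.64 and -1.61, a depot difference of -4.26 (95% confidence interval -5.41 to -3.10). Sema5a, a semaphorin guidance gene, changed by 1.60 and -1.52, and Dock11, an exchange factor for the GTPase Cdc42, by 1.47 and -1.52. The 4 Sema5a values in BAT-WT, -2.77, -2.57, -2.85 and -2.71, and in BAT-KO, -1.13, -1.10, -0.88 and -1.37, did not overlap, nor did its gWAT groups.

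Several lists held such genes, which were 1.81% of all genes tested in both depots. Of 22 complement genes, 4 were higher in BAT and lower in gWAT, namely C4b (1.47 and -1.84), C2 (1.26 and -1.34), C1ra (1.33 and -0.52) and Clu (0.70 and -0.86). Of 14 neutrophil and mast cell genes, 7 were higher in BAT (26.5% of all genes) and 2 lower (31.8% of all genes). In that list 1 gene was opposite and 12 had no pattern (medians 0.92 and -0.58). The summed linear scaled intensity of its 19 members on the array was 121 to 150 in BAT-WT and 100 to 118 in BAT-KO. Cpa3, a mast cell protease gene of the list, changed by 3.96 and -1.22, a depot difference of -5.17. Mcpt4 and Cma1, also mast cell proteases, changed by 3.36 and -1.18 and by 3.36 and -0.95. In gWAT only Cpa3 of these 3 passed the threshold, and within the slide its gWAT change was -0.12 (adjusted p = 0.931). The insulin signalling list held 4 among 39 members, the adaptor Grb10 (1.81 and -0.84) and the binding proteins Igfbp4 (1.13 and -0.78), Igfbp5 (0.86 and -1.26) and Igfbp7 (0.32 and -0.40). Within the slide the gWAT changes were -1.39 for Grb10, -0.84 for Igfbp4 and -0.77 for Igfbp5, and of these only Grb10 passed. Xbp1 and Pdia4, of the endoplasmic reticulum unfolded protein response, changed by 1.13 and -0.51 and by 1.20 and -0.47. The adipokine list held 3 among 27 members, Nnat, the bone morphogenetic protein antagonist gene Chrdl1 (1.02 and -1.56) and the angiotensinogen gene Agt (2.42 and -2.10). Agt was well above background on 3 of 4 BAT-WT arrays.

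Among genes higher in both depots, those of the integrated stress response had some of the clearest changes. Mthfd2, a mitochondrial folate enzyme, was -2.41, -2.54, -2.41 and -2.80 in BAT-WT and 1.72, 2.14, 2.33 and 1.53 in BAT-KO. Its gWAT values were -1.21, -1.84, -1.35 and -1.46 in WT and 2.60, 1.995, 2.15 and 1.35 on the arrays labelled Adipo-Pgam1 KO. The KO arrays of both depots reached similar levels, well clear of WT. Mthfd2 changed by 4.47 (adjusted p = 1.31e-08) in BAT and 3.49 (adjusted p = 1.13e-06) in gWAT, and the depot difference was -0.98 (95% confidence interval -1.70 to -0.26). Trib3, a pseudokinase induced by the transcription factor Atf4, changed by 4.30 and 2.85. Gpnmb, a lysosomal glycoprotein of lipid-laden macrophages, changed by 4.83 and 3.15. Without replicate 4 of the gWAT arrays labelled Adipo-Pgam1 KO its gWAT change was 2.47. Within the slide it was 2.73 and missed the threshold. Mreg, which acts in organelle transport, was the exception with the larger change in gWAT, 2.84 in BAT and 4.78 in gWAT (depot difference 1.94, 95% confidence interval 0.74 to 3.14). Its depot difference was 1.64 within the slide, and it missed the threshold in 3 of 34 alternatives.

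The 29 genes of the Atf4 integrated stress response had a median change of 2.40 in BAT and 0.40 in gWAT, with 21 higher and 3 lower in BAT and 10 higher and 0 lower in gWAT. In both depots, 10 were higher, and in 8 of these the depot difference passed. Fgf21 changed by 6.86 and 4.15, although it was well above background on only 1 of 4 BAT-WT and 3 of 4 gWAT-WT arrays, and Chac1, which degrades glutathione, by 3.85 and 0.88. Chac1 was not among the genes higher in both, and within the slide its gWAT change was -0.33. The proline synthesis gene Aldh18a1 changed by 4.69 and 1.68. The members named for the stress regulators Atf3 (3.67 and 1.84), Atf5 (1.39 and 1.79) and Ddit3 (2.28 and 1.64) did not differ between depots past the threshold. Not all of these regulators were among the 10 genes higher in both. Another 6 genes were higher in BAT only, among them Psat1 (4.89 and 0.40) and Phgdh (3.42 and 0.09) of serine synthesis, the pathway that starts from the substrate of Pgam1, and Atf4 itself (1.64 and 0.03). Asns, asparagine synthetase and a standard Atf4 target, changed by 0.15 and 0.30 and passed in neither depot. Of 20 cytosolic aminoacyl-tRNA synthetases, 11 were higher in both depots (medians 0.56 and 0.59), and the depot difference passed in 0 of these 11. Wars changed by 1.55 and 1.13, Eprs by 1.06 and 1.103 and Cars by 1.33 and 1.02, and the BAT median of this class turned to -0.03 under Actb and Rplp0 scaling. Its median depot difference was 0.10, and it turned to -0.27 with the slide as a block.

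The promoters of Chac1 and Fgf21 are shown because they hold the motif TGATGNAA of the C/EBP-ATF response element, to which Atf4 is known to bind, and had the largest depot differences among members whose window held it. They lie at chr2:119350992-119351241 on the plus strand for Chac1 and chr7:45615491-45615740 on the minus strand for Fgf21 (RefSeq, GRCm38.p6), with the match in capitals, both on the strand opposite to the gene:
Chac1: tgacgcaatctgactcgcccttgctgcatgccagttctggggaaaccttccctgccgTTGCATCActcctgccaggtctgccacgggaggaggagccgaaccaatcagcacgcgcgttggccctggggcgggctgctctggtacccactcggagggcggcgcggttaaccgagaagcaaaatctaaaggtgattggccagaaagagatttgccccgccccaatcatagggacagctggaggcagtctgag
Fgf21: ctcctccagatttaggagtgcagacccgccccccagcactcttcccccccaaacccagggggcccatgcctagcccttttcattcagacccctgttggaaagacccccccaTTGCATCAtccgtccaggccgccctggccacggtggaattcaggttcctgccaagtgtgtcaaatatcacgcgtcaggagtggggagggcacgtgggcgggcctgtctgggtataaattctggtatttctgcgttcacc
The motif was found for 7 of 26 genes of the Atf4 list (26.9%). It was found for 2.56% of the genes tested in both depots and 3.91% of all genes. Among all genes higher in both depots it was found in 3.73%, and among those higher in BAT only in 3.85%.

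Other lists held genes that were higher in both depots beside many that were not. Of 18 genes of lipid-associated macrophages, 9 were higher in both (medians 2.60 and 1.42), and in 5 of these the depot difference passed. The galectin gene Lgals3 changed by 5.05 and 2.05 and the receptor gene Trem2 by 4.14 and 1.72, whereas the droplet coat gene Plin2, which adipocytes also express, changed more in gWAT (0.64 and 2.69). Within the slide the gWAT changes were 1.36 for Lgals3, 1.46 for Trem2 and 2.61 for Plin2, and of these only Plin2 passed. The gWAT median of the list was then 0.92. The summed linear scaled intensity of the general macrophage and monocyte markers was 117 to 159 in BAT-WT and 273 to 348 in BAT-KO, but the genotypes overlapped in gWAT, with 191 to 267 in WT and 183 to 372 on the arrays labelled Adipo-Pgam1 KO. Of 36 proliferation genes, 34 were higher in BAT and 8 in gWAT, with medians of 2.40 and 0.58, and all 8 were higher in both. Those 8 are a share near the 17.0% of all genes that were higher in gWAT. Cytosolic ribosomal proteins had small changes, with medians of 0.47 and 0.26 and 16 of 77 higher in both, and under Actb and Rplp0 scaling the BAT median turned to -0.12, while the gWAT median was -0.003 after quantile normalization, 0.005 after normexp with quantile normalization and 0.047 with the slide as a block. Lysosomal genes were spread over the patterns, with 9 of 49 higher in both, 8 higher in gWAT only and 7 higher in BAT only. Over all genes these patterns held 4.92%, 3.99% and 10.6%, and the lysosomal share in BAT only was near the last. The tetraspanin gene Cd63 changed by 2.42 and 0.59, whereas the cathepsin gene Ctsz was opposite at -1.30 and 1.29. The cell cycle inhibitor gene Cdkn1a changed by -0.47 and 2.27, while Gadd45a, of the same p53 target list, changed by 5.22 and 1.39.

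Genes lower in both depots included adipocyte products and regulators. Rbp4, the plasma carrier of retinol, was 6.93, 6.44, 7.56 and 6.96 in BAT-WT and 3.37, 3.77, 2.83 and 3.66 in BAT-KO. In gWAT it was 7.54, 8.10, 8.65 and 8.31 in WT and 5.75, 6.46, 6.15 and 5.50 on the arrays labelled Adipo-Pgam1 KO. All KO arrays lay below all WT arrays of their depot, and Rbp4 changed by -3.56 and -2.18 (depot difference 1.38, 95% confidence interval 0.49 to 2.26). Slc2a12, a glucose transporter gene, changed by -2.42 and -3.26, and the carboxylesterase gene Ces1f by -3.07 and -2.60. Rasd1, a small GTPase gene induced by glucocorticoids, changed by -2.75 and -2.25, but without gWAT-WT replicate 4 its gWAT change was -2.90, and without replicate 1 of either gWAT genotype it missed the threshold in gWAT, as it did within the slide (-0.29, adjusted p = 0.874). Adipoq, coding for adiponectin, changed by -2.005 and -0.89. Among 40 adipocyte transcription factors and nuclear receptors, 8 were lower in both, including Nr3c2 (-1.47 and -0.74), Nfia (-0.86 and -0.69) and Zfp423 (-0.88 and -0.67). Of 41 adrenergic and cAMP signalling genes, 5 were lower in both, including the receptor genes Adrb1 (-0.90 and -0.95) and Adrb3, while Gnas, coding for the stimulatory G protein subunit, was opposite at -1.83 and 0.55. Within the slide the gWAT change of Gnas was 0.15 and missed the threshold. Insulin signalling contributed 5 of its 39 genes, among them Insr (-0.67 and -0.50) and Irs1 (-0.44 and -0.84). The circadian clock list contributed 3 of 18, Per3 (-1.45 and -0.98), Tef (-0.999 and -0.55) and Hlf (-2.82 and -0.53). Over all genes, 4.33% were lower in both. Spike-in scaling turned the gWAT median of the transcription factor list from -0.17 to 0.29 and both medians of the insulin and clock lists to positive values between 0.18 and 0.36.

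Responses in BAT only, at 3427 genes, outnumbered the other patterns, but under spike-in scaling there were 1243, against 2957 alike. Plscr2, a phospholipid scramblase gene, was -3.13, -3.65, -3.38 and -3.28 in BAT-WT and 1.45, 1.46, 1.90 and 0.93 in BAT-KO. In gWAT its values overlapped, with -0.25, -1.30, -1.44 and -1.69 in WT and -1.36, -1.47, -0.65 and -1.51 on the arrays labelled Adipo-Pgam1 KO. Plscr2 changed by 4.80 in BAT and -0.08 in gWAT (depot difference -4.87, 95% confidence interval -5.75 to -3.99, adjusted p = 2.81e-06). Psat1 stood at -1.16, -0.97, -1.55 and -1.15 in BAT-WT and 3.53, 3.77, 4.01 and 3.42 in BAT-KO, whereas gWAT-WT already stood at 4.50 to 5.09. BAT-KO thus approached, without reaching, the level of gWAT-WT for Psat1. Map1b, a microtubule-associated protein gene, changed by 4.03 and 0.28, and Gm13889 by 4.59 and 0.36. On the lower side, Nat8l, which makes N-acetylaspartate in brown fat and brain, was 4.05, 4.09, 3.81 and 3.51 in BAT-WT and 0.06, -0.45, -0.33 and -0.13 in BAT-KO. It was 2.38 to 3.04 in gWAT-WT and 1.87 to 2.75 on the gWAT arrays labelled Adipo-Pgam1 KO, with overlap. Nat8l changed by -4.08 and -0.39 (depot difference 3.69, 95% confidence interval 3.03 to 4.34). St3gal5, the synthase of the ganglioside GM3, changed by -3.22 and -0.02, Gm15471 by -4.01 and -0.13, and B230369F24Rik by -3.29 and -0.05.

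Several immune and matrix lists had their calls mostly in BAT. All 13 genes of MHC class II presentation were higher in BAT and 1 was higher in gWAT (medians 1.999 and -0.21), and 9 were higher in BAT only, including H2-Aa at 1.999 and -0.32. Of 22 macrophage and monocyte markers, 19 were higher in BAT and 2 in gWAT (medians 2.73 and 0.11), and 9 were higher in BAT only. Mrc1, the mannose receptor gene of resident macrophages, changed by 3.15 and 0.12, and Folr2, a folate receptor gene of the same cells, by 3.07 and -0.13. T cell and NK cell markers had medians of 1.71 and 0.03, and chemokines and their receptors of 2.43 and 0.33. With the slide as a block their BAT medians were 0.80 and 1.95, and under normexp with quantile normalization 0.95 and 1.51. The summed level of T cell and NK cell markers was 8.39 to 16.5 in BAT-WT and 16.7 to 22.2 in BAT-KO. Interferon-stimulated genes were higher in BAT in 27 of 39 cases and in gWAT in 1, where 4 were lower (medians 0.93 and -0.09), and 18 were higher in BAT only. The 4 lower in gWAT are a share near the 11.2% of all genes. Collagens had medians of 1.44 and 0.07, with 8 of 20 higher in BAT only, among them Col5a2 at 2.15 and -0.24. Preadipocyte and fibroblast markers had medians of 0.93 and -0.04, matrix remodelling enzymes of 0.81 and 0.11, and the fibroblast gene Dpt was opposite at 0.98 and -1.04. The small gWAT medians of these classes changed sign with the scaling, to at most 0.42 in size under spike-in scaling for the MHC class II, interferon, complement and fibroblast lists, and to -0.04 for collagens and -0.02 for macrophage markers under quantile normalization. The macrophage summed levels given above moved with these classes in BAT, and their part in them was not tested.

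The promoters of Oas1a (2.83 in BAT, 0.28 in gWAT), an oligoadenylate synthetase gene, and Ifit3 (1.74 in BAT, -0.12 in gWAT), an interferon-induced gene with tetratricopeptide repeats, are shown because they hold the motif GAAANNGAA, the core of the interferon-stimulated response element. They had the largest depot differences among interferon-stimulated genes whose window held it, and lie at chr5:120907526-120907775 on the minus strand for Oas1a and chr19:34583279-34583528 on the plus strand for Ifit3 (RefSeq, GRCm38.p6), with matches in capitals:
Oas1a: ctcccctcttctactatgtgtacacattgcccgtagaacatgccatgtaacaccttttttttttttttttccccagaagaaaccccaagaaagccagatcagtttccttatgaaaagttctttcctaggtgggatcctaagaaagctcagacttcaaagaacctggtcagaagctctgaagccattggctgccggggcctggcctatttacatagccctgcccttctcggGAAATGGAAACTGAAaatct
Ifit3: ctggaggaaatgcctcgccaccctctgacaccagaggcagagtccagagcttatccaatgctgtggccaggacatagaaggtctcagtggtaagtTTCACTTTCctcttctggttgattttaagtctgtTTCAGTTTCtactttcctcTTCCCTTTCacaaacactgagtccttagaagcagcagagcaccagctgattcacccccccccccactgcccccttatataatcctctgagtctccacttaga
Oas1a holds 2 overlapping matches and Ifit3 holds 3, all of the latter on the opposite strand. The motif was found for 15 of 29 genes of the interferon-stimulated list (51.7%). It was found for 7.44% of the genes tested in both depots, 8.18% of all genes, and 10.1% of the genes higher in BAT only.

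**Figure D4:**
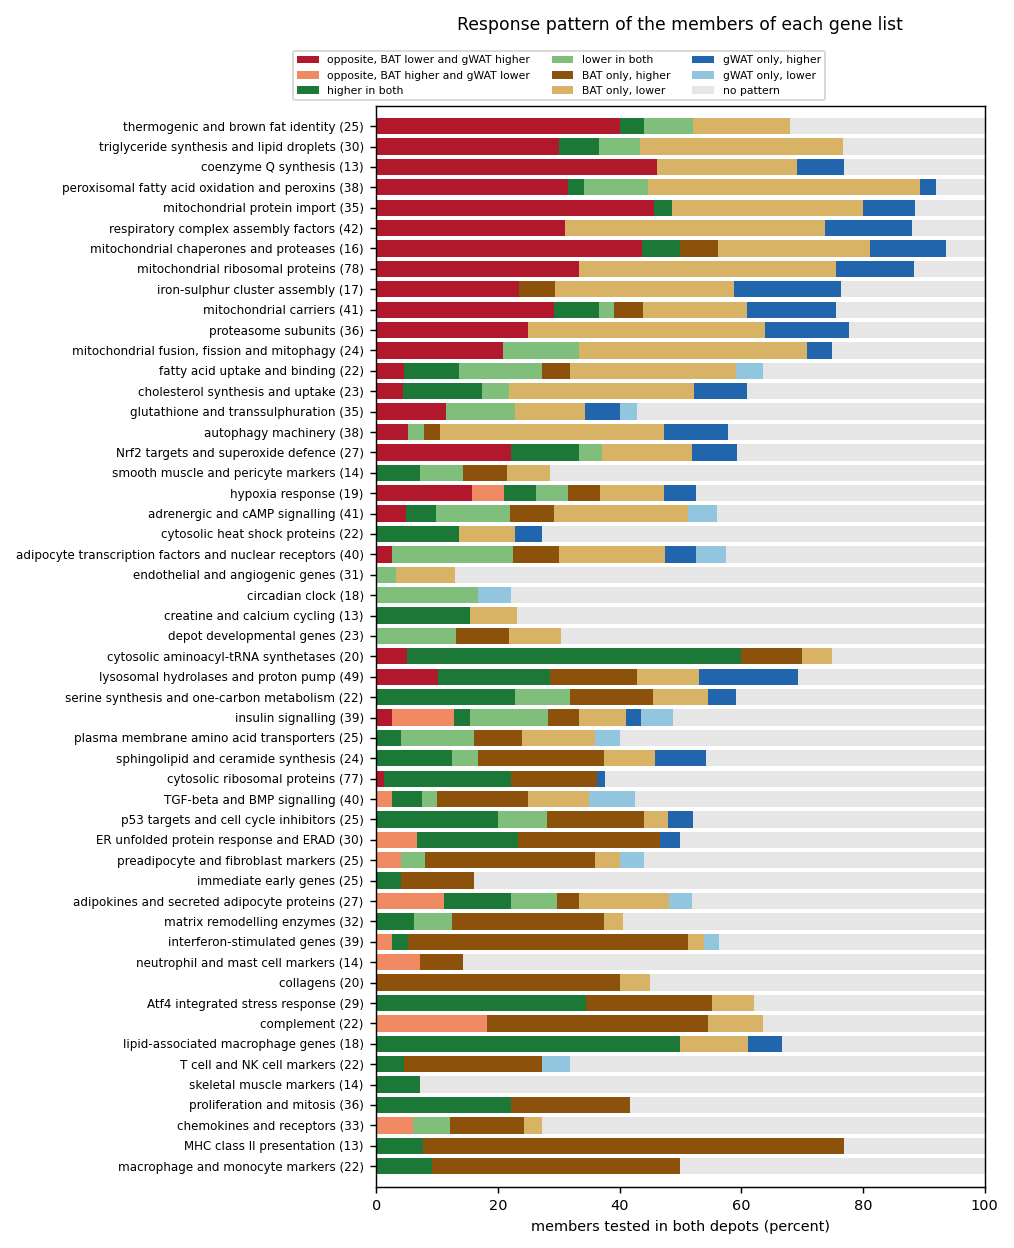
Share of the members of each gene list, among those tested in both depots (number in brackets), that fell in each of the 8 response patterns, with the lists in the order of their median depot difference. Mitochondrial lists hold opposite genes and genes lower in BAT only, tRNA synthetases are mostly higher in both (11 of 20), and MHC class II genes are mostly higher in BAT only (9 of 13).

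Responses in gWAT only were fewer than those in BAT only, with 872 against 3427 genes, but under spike-in scaling there were 1446 against 1243. Sbk1, a serine/threonine kinase gene, overlapped between genotypes in BAT, with 1.40, 1.70, 1.81 and 1.70 in WT and 1.99, 1.80, 1.37 and 1.65 in KO. In gWAT it was -0.58, -1.05, -0.04 and -0.83 in WT and 2.56, 1.53, 1.51 and 1.36 on the arrays labelled Adipo-Pgam1 KO, with no overlap and with levels close to those of BAT. Sbk1 changed by 0.05 in BAT and 2.36 in gWAT (depot difference 2.31, 95% confidence interval 1.54 to 3.09, adjusted p = 1.74e-04). Impa2, an inositol monophosphatase gene, changed by 0.04 and 2.33, Hebp2, a haem-binding protein gene, by -0.36 and 1.90, and Cnst, coding for a connexin trafficking protein, by -0.34 and 1.90. For all 4 of these genes the gWAT-WT arrays lay below every BAT array. The 4 genes with the largest fall in gWAT only were Lsamp, Cd300lf, Tdgf1 and Ddx25. Lsamp, a neuronal adhesion gene, was -0.09, 0.12, 0.19 and 0.39 in BAT-WT, 0.04, 0.24, 0.35 and 0.44 in BAT-KO, 1.53, 1.17, 1.44 and 1.19 in gWAT-WT, and -1.70, -1.01, -1.94 and -1.10 on the gWAT arrays labelled Adipo-Pgam1 KO. It changed by 0.11 and -2.77, and Cd300lf, Tdgf1 and Ddx25 changed by -2.84, -2.68 and -2.61 in gWAT. When all probes of a gene were averaged, the depot difference of Tdgf1 went from -2.62 to -0.41 and missed the threshold (adjusted p = 0.271), and that of Cd300lf went from -2.82 to -1.09. The values of these 4 genes followed each other over the 16 arrays with correlations of 0.988 to 0.994, given as a description of arrays that share depot and genotype. Outside that shared profile, the genes with the largest fall in gWAT only were Abat, which breaks down the transmitter GABA (0.39 and -1.90), Opn3, a light-sensing opsin gene (0.18 and -1.93), the smooth muscle transcript Carmn (0.26 and -1.86) and Rtn2, a reticulon gene of the endoplasmic reticulum (0.31 and -1.77).

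With the slide as a fixed block, the contrast rests on the single WT array of each depot that shared a slide with KO arrays. Under that block 3264 genes differed between the depots, 123 were opposite, 367 alike, 1354 in BAT only and 162 in gWAT only. Of the 1103 opposite genes, 1087 kept both signs, and the depot difference passed in 765 of the 1103. Of the 1259 alike genes, 1256 kept both signs. All 32 genes named for the patterns kept the sign of their depot difference, and each of the 24 in an opposite or one-depot pattern still passed the threshold for it. Of the 8 opposite genes among them, however, Otop1 (adjusted p = 0.0836) and Nnat (adjusted p = 0.180) no longer passed in BAT and Prlr (adjusted p = 0.121) no longer passed in gWAT. Over the genes named by rule, 181 calls in BAT remained and 32 were lost with the block, and 40 calls in gWAT remained and 67 were lost, while every gWAT call and 212 of the 213 in BAT kept their sign. Within the slide, Egln3 differed between depots by 5.42 (adjusted p = 3.88e-04), Cpt1b by 6.05 (adjusted p = 7.96e-04), Nnat by -5.52 (adjusted p = 0.0174) and Plscr2 by -4.27 (adjusted p = 0.00202). Among genes that responded alike, Mthfd2 kept changes of 4.73 and 3.49 and Rbp4 of -3.55 and -2.34, but their depot differences of -1.25 and 1.21 missed the threshold (adjusted p = 0.126 and 0.229).

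**Figure D5:**
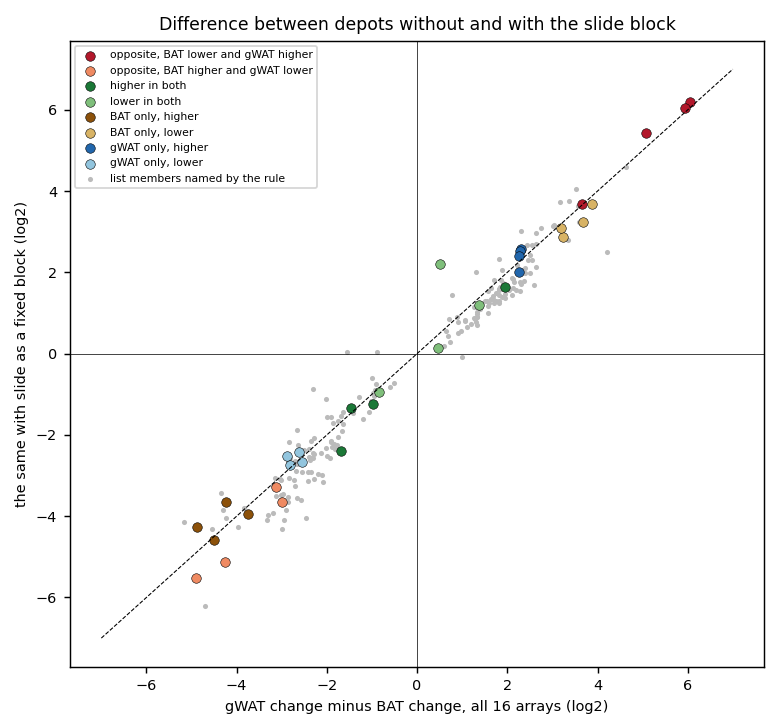
Depot difference (gWAT change minus BAT change, log2) of the genes named by rule, fitted on all 16 arrays (x axis) and with the slide as a fixed block (y axis), with the line of equality dashed. Of 223 genes, 220 kept their sign and 153 still passed the threshold with the block.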

How the data were processed

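RNA of whole BAT and gWAT was labelled with Cy3 and hybridised to 1-colour Agilent SurePrint G3 Mouse GE 8x60K arrays. The authors deposited 1 file of spot intensity per array, extracted with Agilent Feature Extraction 10.7.1.1 according to the submitters' processing notes, and a table of intensity normalised in GeneSpring GX, close to the signal scaled to the 75th percentile of each array. The labels and the study's methods give different amounts of RNA per array. Background-subtracted signals of the 59305 non-control spots were divided by the 75th percentile of their array and put on the log2 scale, spots with irregular signal were left out, and spots of 1 probe were averaged. Of 35886 probes with a RefSeq accession, 32994 (91.9%) received a symbol from the RefSeq table, and each of 22911 symbols was represented by its brightest complete probe. The 23611 probes without a symbol were not used here. A gene was tested in a depot if all 4 arrays of either genotype had its probe well above background. One model with a mean for each depot and genotype was fitted to the 16 arrays in limma 3.58.1 (R 4.3.3), with contrasts for BAT, gWAT and their difference, and p-values were adjusted by the Benjamini-Hochberg method over all genes tested. This design fits the groups without pairing. Methods of the study name a two-group test on each gene, which was run as an alternative. Where a probe was not well above background on any array of a group, a fold is given as a lower bound, computed against the higher of the lowest signal well above background and the probe's own signal on each array. The scripts were tested on simulated data. Named genes were Pgam1, the 4 genes of each pattern with the largest changes among genes well above background on all 16 arrays (by the smaller of the 2 changes for opposite and alike patterns, by the depot difference otherwise), up to 4 members of each list with the largest depot difference past the threshold, any member in a count of 5 or fewer, and other list members given with their values. The patterns, genes and lists were chosen with earlier results of these data known. Promoters came from RefSeq (GRCm38.p6), and motifs were searched on both strands in the 250 bases before the start with Python 3.11.15. Nothing in the labels says that the 4 arrays of a group came from separate extractions, so the p-values measure the spread between these arrays, whose number limits the precision. Alternatives covered the scaling, normalization, background correction, deposited table, filters, choice of probe, slide and scan day, replicate number, separate fits, test, threshold and each array left out. A few list members are not reported here by name.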

Additional observations from a re-analysis of the deposited data

Results flagged for a closer look

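The genotype response differed between the depots in 7163 genes by the test of the difference itself in limma. Among genes named for their opposite responses, the depot difference (gWAT change minus BAT change, log2) was 5.08 for Egln3, 6.05 for Otop1, 5.93 for Cpt1b and 3.66 for Cox8b. It was -4.89 for Nnat, -4.26 for Prlr, -3.13 for Sema5a and -2.99 for Dock11. In 10 cases, 1 array of a named gene lay far from the other 3 of its group by Dixon's criterion, which chance meets in about 1 of 20 groups. Replicate 1 of the gWAT arrays labelled Adipo-Pgam1 KO had a low log2 scaled intensity for Nnat (0.61) and a high one for Sbk1 (2.56). On BAT-KO replicate 1, Gpnmb was low at 1.71 and Slc2a12 at -4.51. Plscr2 was high on replicate 3 (-0.65) and Psat1 low on replicate 4 (4.63) of the gWAT arrays labelled Adipo-Pgam1 KO. B230369F24Rik was low on BAT-WT replicate 1 (-0.56). On gWAT-WT replicate 2, St3gal5 was high at 2.26 and Impa2 at 0.88, and on gWAT-WT replicate 3 Hebp2 was high at -1.77. For each of these genes, the side of 0 of the depot difference was the same when any single array was left out.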

How the results depend on the processing

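The counts below are genes with a depot difference, genes called in gWAT, and genes that were opposite, alike, in BAT only or in gWAT only (7163, 3983, 1103, 1259, 3427 and 872 as reported). With the slide as a block they were 3264, 1014, 123, 367, 1354 and 162, and with the scan day as a block 4565, 930, 172, 415, 2066 and 225; the cause was not tested. At an adjusted p of 0.01, 1916 genes were called in gWAT, 404 were opposite, 517 alike and 455 in gWAT only. Spike-in scaling gave 6547 in gWAT, 2957 alike, 1243 in BAT only and 1446 in gWAT only, with 963 opposite, and Actb and Rplp0 scaling gave 407 in gWAT only. Separate fits of each depot gave 2527 in gWAT, 664 opposite and 538 in gWAT only, and the methods' two-group test gave 1613, 373 and 403, with 508 alike. Leaving out 1 array at a time gave 6502 to 7592 depot differences, 7552 to 8620 genes in BAT (8320 as reported), 2784 to 4431 in gWAT, 749 to 1451 opposite, 938 to 1278 alike, 3114 to 3564 in BAT only and 593 to 1032 in gWAT only. The labels do not say that replicate numbers pair the samples; deviations of same-numbered BAT and gWAT arrays correlated at -0.12 to 0.25, with 5 of 8 correlating best with their own number, so pairing was not settled. With the replicate block within genotype 7218 genes differed and 1102 were opposite, against 7044 and 979 with the replicate block over all groups. Among results past the threshold, signs turned in few named genes. Changes that had not passed turned too, such as those in gWAT with the slide block for Chac1 (-0.33), Phgdh (-0.57) and St3gal5 (0.29). The slide block gave 0.091 for Slc25a34 in BAT and depot differences of -0.078 for Vegfa, 0.037 for Actg2 and 0.046 for Tubb3. Spike-in scaling gave 0.036 for Acsl1 and 0.059 for Nr1d2 in gWAT, and 0.094 for Kars and 0.12 for Hsp90ab1 in BAT. Quantile normalization gave 0.026 for Hsp90ab1 in BAT (depot difference -0.007), and 0.031 after normexp (-0.041). Actb and Rplp0 scaling gave -0.19 for Actb in BAT and a depot difference of 0.016 for Nr1d2. Nnat missed the threshold in BAT without BAT-WT replicate 3. Probes close to background have little precision, and 92 list members were below it in both depots.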

Other observations

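The profile of Lsamp, Cd300lf, Tdgf1 and Ddx25 was shared by more genes, as was noticed after their values were seen. Of 14807 genes compared, 11 others correlated above 0.95 with the mean of these 4 over the 16 arrays, namely Pou4f1, Rabgap1, St6galnac1, Shc4, Trp53rkb, Lzts3, Rhox3a, Cabp5, Herc2, Klra1 and Dcc. Of the 15 genes, 13 were lower in gWAT only. For 3 of them, other probes of the same gene changed less in gWAT: the other probe changed by -0.03 for Rabgap1 and by 0.21 for Trp53rkb, and the other probes of Herc2 ranged from -0.57 to 0.08. The correlation is over arrays that share depot and genotype and is given as a description. Apart from the muscle genes named above, the muscle signal on BAT-KO replicates 1 and 3 was seen in the troponin gene Tnnc2, with linear scaled intensities of 33.1 and 5.69, and in Tnnt3, with 20.005 and 3.43. The summed level of 24 of the 26 skeletal muscle genes was 215.7, 14.2, 47.6 and 19.0 on the 4 BAT-KO arrays and 51.3 to 58.3 on the BAT-WT arrays. This sum leaves out Acta1 and 1 other member of the list, which is not reported here by name. Actin of skeletal muscle, Acta1, was 2.52 to 23.5 in gWAT-WT and 29.4 to 57.6 on the gWAT arrays labelled Adipo-Pgam1 KO. Of 31 endothelial and angiogenic genes, 27 had no response pattern, with medians of -0.35 in BAT and -0.01 in gWAT, and spike-in scaling turned both to positive values.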
